A study of Mus musculus with 2 samples.

Results

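The genes described here are 10 structural genes of the microvillus, chosen by name: the actin bundlers Vil1, Espn and Pls1, the capping and bundling protein Eps8, the membrane motor Myo1a, the membrane linker Ezr, and Cdhr2, Cdhr5, Ush1c and Myo7b of the complex that joins microvillus tips. All 10 were found among the 18919 genes of the deposited table, and all 10 reached 1 FPKM (sequenced fragments counted per kilobase of transcript length and scaled to the depth of the library) in at least 1 library. The samples were whole intestines of 2-month-old C57BL/6 mice. The knockout pool had the genotype APCmin; Setd2IEC-/-, in which Setd2, a histone methyltransferase gene, was deleted in intestinal epithelial cells, and the control pool had the genotype APCmin. Both pools therefore carried the Min mutation of Apc, which gives rise to intestinal adenomas. Each pool was the mixed RNA of 3 littermates and gave 1 library, so no difference has a replicate check and no p-value is given. The driver of the epithelial deletion is not given in the labels.

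The brush border of an absorptive enterocyte is a dense array of microvilli. Each microvillus is a bundle of parallel actin filaments that villin, espin and plastin hold together, that Eps8 caps at the tip, and that Myo1a and ezrin tie to the membrane around it. Neighbouring microvilli are joined at their tips by threads in which the protocadherin Cdhr2 of one meets Cdhr5 of the next, and harmonin (Ush1c), Anks4b and the motor Myo7b with its light chain Calml4 hold these threads at the tip. Differentiating cells assemble the brush border as they leave the crypt, so most of these transcripts are thought to belong mainly to the villus. Ezr is also made in crypt cells and in other epithelia.

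Expected counts added up to 8646358 in the knockout library and 8809678 in the control library. Setd2 was at 3.47 FPKM in the knockout pool and 6.87 FPKM in the control pool. Of 15 listed genes of the exocrine pancreas, 14 were past 2-fold upward in the knockout pool, against 2.78% of all measured genes. Their summed level was 2799.9 FPKM against 141.81, and Prss1 was listed at 0 in the control pool. Stomach genes summed to 155.75 FPKM against 12.84, with 6 of 7 measured genes at least 2-fold higher and Gkn2, Muc5ac and Gif listed at 0 in the control pool. Red cell genes summed to 240.0 FPKM against 66.06, with 4 of 4 measured genes at least 2-fold higher and Slc4a1 listed at 0 in the control pool. Epithelial genes shared by the intestinal lineages had a median log2 ratio of 0.16 over 17 measured genes, crypt stem cell genes 0.44 over 13 and proliferation genes 0.39 over 14. The medians of tuft, Paneth, goblet and enteroendocrine markers were -0.33, -0.91, -0.35 and 0.00, and those of leukocyte, endothelial, and smooth muscle and stromal markers were -0.11, 0.29 and 0.08.

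As a group the microvillus genes were modestly lower in the knockout pool. Their summed level was 3128 FPKM in the knockout pool and 3584 FPKM in the control pool. Their summed expected counts were 88922 and 104195, or 1.03% and 1.18% of each library. The ratio of these sums, each divided by its library total, was 0.870, with a 95% counting interval of 0.862 to 0.877. Such intervals are derived from the knockout share of the reads by the exact Clopper-Pearson method. They cover counting error only and no variation among animals. The log2 ratio of knockout over control, taken after 1 FPKM was added to both values, was below 0 for all 10 genes, with a median of -0.23 (range -0.53 to -0.001). Among all 13253 measured genes, 37.2% were below 0 and the median was 0.08. Among the 1630 genes with a mean of 50 FPKM or more, a background chosen after seeing the data that holds all 10 genes, 47.9% were below 0 and the median was 0.02.

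The counting interval lay below 1 for 8 of the 10 genes, against 12.5% of all measured genes and 33.1% of the abundant ones, though after centring on the median of the enterocyte marker list 8 of the 10 had log2 ratios above 0. The interval included 1 for Cdhr5 and Ezr, and both were slightly above 0 after rescaling to TPM. Scaled by the median ratio of all measured genes, their log2 ratios were -0.11 and -0.098. None of the 10 genes was 2-fold higher or lower, which 2.78% and 1.28% of measured genes were. In bulk RNA, fewer enterocytes and less RNA per enterocyte cannot be told apart. The crypt stem cell and proliferation lists moved the other way. In them 1 of 13 and 0 of 14 genes were below 0, against 37.2% of all measured genes, whose median was 0.08. Their summed levels were 224.2 FPKM against 168.6 and 357.1 FPKM against 250.3, knockout against control. Their part in the microvillus result was not tested. When the pancreas, stomach and red cell lists were left out of the library totals, the median of the 10 genes was -0.22 and 9 remained below 0.

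**Figure D1:**
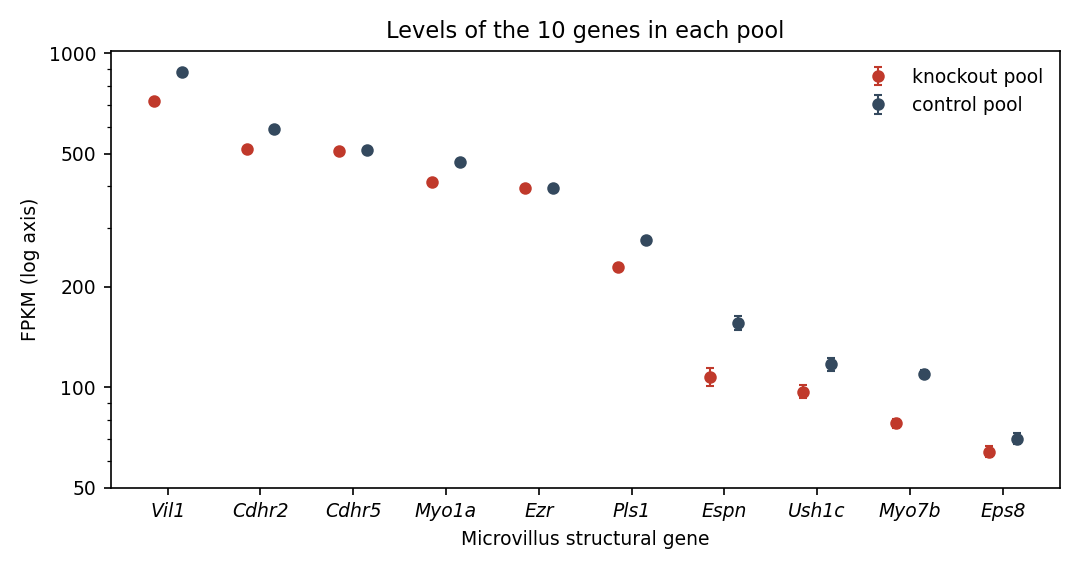
Level of each gene in FPKM on a log axis, with the knockout pool left of the control pool, 1 library each; bars are 95% Poisson counting intervals and are mostly hidden by the points. The order of the genes was the same in both pools, with Vil1 at 719.04 and 879.48 FPKM at the top and Eps8 at 64.23 and 70.2 FPKM at the bottom.

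FPKM is scaled by transcript length, so levels of different genes can be set side by side within a library. The order was the same in both libraries: Vil1, Cdhr2, Cdhr5, Myo1a, Ezr, Pls1, Espn, Ush1c, Myo7b and Eps8. Vil1 ranked 91 among measured genes in the knockout pool and 71 in the control pool, and Eps8 ranked 1335 and 1172. Poisson intervals of neighbouring genes overlapped in the knockout pool for Cdhr2 and Cdhr5 and for Espn and Ush1c, and in the control pool for Ush1c and Myo7b. All other neighbours were apart beyond counting error. The order also rests on the transcript lengths used for FPKM, and the Poisson intervals do not cover error in those lengths. The plot of levels by gene shows both orders.

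The sequences at the transcription starts of 4 of the genes are shown because these genes span the range of the results: Vil1 is the most abundant, Espn had the lowest ratio, Ezr the highest, and Cdhr2 is the most abundant member of the tip-link complex. Each is 300 bases of RefSeq on GRCm38.p6 (the same build as mm10), from 250 bases before the start, read 5′ to 3′ on the strand of the gene. Windows were listed for 8 of the 10 genes, 10 windows in all. They were searched on both strands for letters typical of factors of the gut epithelium and of actin genes. For the HNF4 factors these were CAAAGTC. For the CDX factors the letters TTTATNG were used. For the GATA factors the search took AGATAA, and for the KLF factors it took GGGNGTG. The CArG box, which SRF binds, was the last. Capitals mark every match. Positions are counted from 0 at the start base.
Vil1, chr1:74409134-74409433, plus strand: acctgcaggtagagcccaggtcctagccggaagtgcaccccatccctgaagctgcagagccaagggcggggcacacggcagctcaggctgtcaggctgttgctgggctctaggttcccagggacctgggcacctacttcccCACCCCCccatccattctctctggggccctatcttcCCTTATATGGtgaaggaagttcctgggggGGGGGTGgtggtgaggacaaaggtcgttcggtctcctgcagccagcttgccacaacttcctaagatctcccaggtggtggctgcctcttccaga
Espn, chr4:152128876-152129175, minus strand: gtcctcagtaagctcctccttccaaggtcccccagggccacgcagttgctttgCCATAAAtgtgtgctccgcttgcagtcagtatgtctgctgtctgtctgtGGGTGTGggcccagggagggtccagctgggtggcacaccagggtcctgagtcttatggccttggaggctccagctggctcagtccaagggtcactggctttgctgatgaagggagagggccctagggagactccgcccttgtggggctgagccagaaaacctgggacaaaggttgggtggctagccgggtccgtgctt
Cdhr2, chr13:54701213-54701512, plus strand: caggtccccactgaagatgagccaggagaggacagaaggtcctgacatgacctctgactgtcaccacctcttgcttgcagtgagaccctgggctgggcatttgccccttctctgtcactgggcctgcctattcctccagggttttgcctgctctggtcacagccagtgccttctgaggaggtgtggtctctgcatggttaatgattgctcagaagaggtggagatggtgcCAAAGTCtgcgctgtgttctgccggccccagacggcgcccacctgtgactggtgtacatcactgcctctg
Ezr, chr17:6782731-6783030, minus strand: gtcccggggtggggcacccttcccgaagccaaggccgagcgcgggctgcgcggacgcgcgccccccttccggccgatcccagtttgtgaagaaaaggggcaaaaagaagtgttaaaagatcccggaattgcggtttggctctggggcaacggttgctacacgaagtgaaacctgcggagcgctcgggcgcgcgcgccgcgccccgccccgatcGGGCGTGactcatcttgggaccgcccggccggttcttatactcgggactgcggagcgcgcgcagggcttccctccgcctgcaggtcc
The Vil1 window held a CArG box at -73 to -64 and KLF letters at -109 to -103 and -44 to -38. The Espn window held CDX letters at -197 to -191 and KLF letters at -148 to -142, the Cdhr2 window HNF4 letters at -20 to -14, and the Ezr window KLF letters at -37 to -31. No 2 motifs overlapped. Over the 10 windows, KLF letters were in 5, against 29.2% of all 32851 windows of the same length, and HNF4, CDX and CArG letters were in 1 each, against 4.44%, 10.9% and 1.63%. GATA letters were in 0 of the 10 windows and in 11.2% of all windows. A match is a description of the letters and not a measured binding site.

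**Figure D2:**
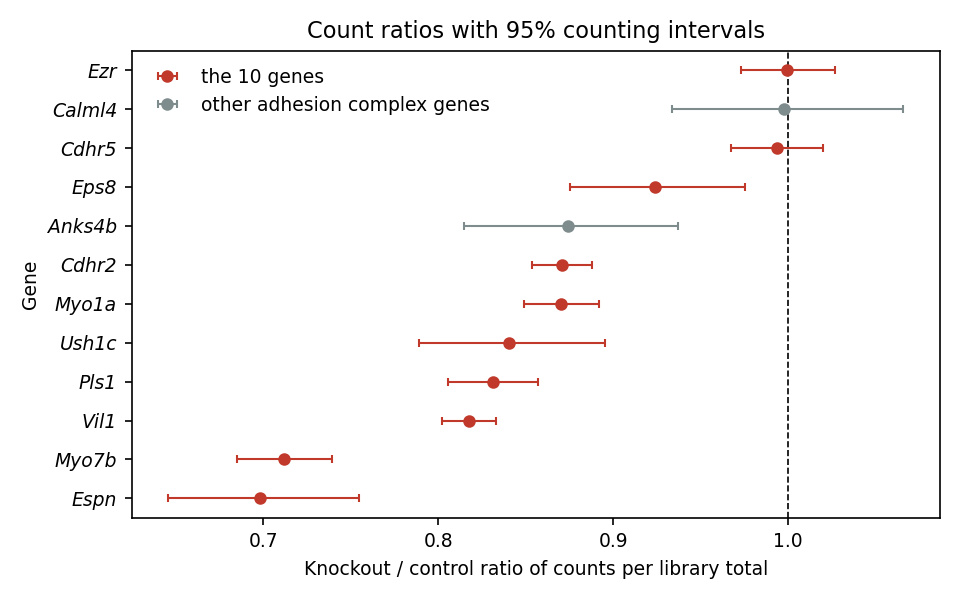
Ratio of expected counts per library total, knockout over control, for the 10 genes (red) and 2 further genes of the tip-link complex (grey); bars are 95% Clopper-Pearson counting intervals and the dashed line marks a ratio of 1. Espn at 0.698 and Myo7b at 0.712 stand to the left and Cdhr5 at 0.993 and Ezr at 0.999 reach the line; with log2 ratios centred on the enterocyte marker list, only Espn and Myo7b stayed below 0.

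The 3 actin bundlers were lower in the knockout pool, Espn by the most, and only Espn remained below 0 when ratios were centred on the enterocyte marker list. Vil1 (gene 22349, chromosome 1, 74409384 to 74435560) encodes villin, which bundles actin and severs it when calcium is high. It was at 719.04 FPKM in the knockout pool and 879.48 FPKM in the control pool, from 19515 and 24325 counts, a ratio of 0.817 (0.802 to 0.833). The last bases of Vil1 overlap the gene Usp37, which was at 11.44 FPKM and 12.09 FPKM, and the strandedness of the counting is not given. Annotated genes also lie across Espn (the pseudogene Gm17852) and Myo7b (the long non-coding RNA Gm16344), and neither has values in the table used here. Pls1 (gene 102502, chromosome 9, 95752642 to 95845306) encodes plastin 1, which packs the filaments and ties the bundle to the keratins below. Its level was 229.09 FPKM in the knockout pool and 275.58 FPKM in the control pool, from 7388 and 9057 counts, with a ratio of 0.831 (0.806 to 0.857) that overlaps the interval of Vil1.

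Espn (gene 56226, chromosome 4, 152120331 to 152152414) encodes espin, a bundler that lengthens microvilli when cells are made to overexpress it. It stood at 107.42 FPKM in the knockout pool and 155.93 FPKM in the control pool, from 1089 and 1589 counts. The ratio of 0.698 (0.646 to 0.755) was the lowest of the 10, and 4.07% of measured genes had a lower log2 ratio. Relative to Vil1 the Espn ratio was 0.854, with an interval of 0.789 to 0.925 from a normal approximation on the log scale. The proportion of the 2 bundlers thus differed between these libraries beyond counting error, which is all that the interval covers. Espn was at 14.9% of the Vil1 level in the knockout pool and at 17.7% in the control pool.

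Espn has 6 RefSeq transcripts in the deposited files, of which 4 share a start, so that there are 3 starts in all. RSEM gives a gene the mean length of its transcripts, weighted by their estimated abundance. This length was 1187 nt for Espn in the knockout pool and 1171 nt in the control pool. In the GENCODE annotation of the same build, the shortest of the 6, Espn-202, spans 1142 nt of exons from the start at 152128925, and the others span 1375 to 3406 nt. The listed lengths were therefore close to the short transcript in both pools, and its start is the one whose sequence is printed above. The window at the Espn start shared by 4 transcripts held none of the 5 motifs. Nor did the window listed farthest upstream, from 152152340 to 152152639. That window does not contain the GENCODE start at 152152207, so the sequence around this start was not searched. For Ush1c the listed length was 2107 nt in the knockout pool and 2079 nt in the control pool, near the shortest of its 4 transcripts (2047 nt; the longest has 3072 nt). For Cdhr5 it was 2464 nt and 2456 nt, between its 2 transcripts of 2133 and 2628 nt. Eps8 has 5 RefSeq transcripts, not all of which were found in GENCODE. Its listed length was 4492 nt and 4447 nt, near the longest of those found (4567 nt). GENCODE lengths differ by some bases from those of the authors' transcript set. These lengths are thus a guide to which transcripts prevail and not to their exact shares. For Eps8 they do not settle which prevails, because the lengths of its other transcripts were not found.

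Eps8 (gene 13860, chromosome 6, 137477245 to 137649397) encodes the protein that caps and bundles filaments at the microvillus tip. It was at 64.23 FPKM in the knockout pool and 70.2 FPKM in the control pool, from 2521 and 2780 counts, a ratio of 0.924 (0.875 to 0.975). This was the smallest difference among the 8 genes whose interval lay below 1, and on the scale centred on the enterocyte markers its sign turned. Relative to Vil1 its ratio was 1.13 (1.07 to 1.20), so that Eps8 was at 8.93% of the Vil1 level in the knockout pool and at 7.98% in the control pool.

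The membrane motor and the membrane linker differed from each other. Myo1a (gene 432516, chromosome 10, 127703436 to 127720940) encodes brush border myosin I, which forms the bridges between the bundle and the membrane. It was at 411.81 FPKM in the knockout pool and 473.08 FPKM in the control pool, from 12033 and 14087 counts, a ratio of 0.870 (0.849 to 0.892). Ezr (gene 22350, chromosome 17, 6738131 to 6782780) encodes ezrin, which links membrane proteins to actin and is also made in crypt cells and in other epithelia. Its level was 395.82 FPKM in the knockout pool and 396.01 FPKM in the control pool, from 10579 and 10786 counts. The ratio was 0.999 (0.973 to 1.03), so scaled by library totals no difference beyond counting error was seen. The log2 ratio of Ezr was -0.16 when centred on the pan-epithelial list and 0.35 when centred on the enterocyte marker list. Relative to Ezr, a comparison chosen after the values were seen, Myo1a had a ratio of 0.871 (0.840 to 0.903), Vil1 0.818 (0.792 to 0.845) and Espn 0.699 (0.644 to 0.758). These ratios do not depend on how the libraries are scaled. Ezr was at 55.0% of the Vil1 level in the knockout pool and at 45.0% in the control pool.

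Within the tip-link complex the ratios were not all alike. The motor Myo7b and the cadherin Cdhr5 stood apart, while the intervals of the cadherin Cdhr2 and the scaffold Ush1c overlapped. Cdhr2 (gene 268663, chromosome 13, 54701463 to 54736662) was at 516.73 FPKM in the knockout pool and 593.4 FPKM in the control pool, from 18640 and 21814 counts, a ratio of 0.871 (0.854 to 0.888). Its binding partner Cdhr5 (gene 72040, chromosome 7, 141269080 to 141276795) was at 508.63 FPKM in the knockout pool and 513.48 FPKM in the control pool, from 10878 and 11157 counts, a ratio of 0.993 (0.967 to 1.02). The Cdhr2 level was 1.02 times that of Cdhr5 in the knockout pool and 1.16 times in the control pool. The Cdhr2 ratio divided by the Cdhr5 ratio was 0.876 (0.848 to 0.906), which does not depend on library scaling.

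Ush1c (gene 72088, chromosome 7, 46195350 to 46238490) encodes harmonin, the scaffold that holds the cadherin tails. It was at 97.11 FPKM in the knockout pool and 117.13 FPKM in the control pool, from 1772 and 2148 counts, a ratio of 0.841 (0.789 to 0.896). Myo7b (gene 17922, chromosome 18, 31959234 to 32036931) encodes the motor that carries the complex to the tip, and it was at 78.05 FPKM in the knockout pool and 109.64 FPKM in the control pool. Its 4507 and 6452 counts gave a ratio of 0.712 (0.685 to 0.739), below the interval of every other member of the 10 except Espn. The Myo7b ratio remained below 0 on the log2 scale when centred on the enterocyte marker list. The other proteins of the complex are encoded by Anks4b, a scaffold, and Calml4, the light chain. Anks4b was at 83.67 FPKM in the knockout pool and 95.73 FPKM in the control pool, a ratio of 0.874 (0.815 to 0.937). Calml4 was at 258.2 FPKM and 263.29 FPKM, a ratio of 0.997 (0.934 to 1.07), so that Myo7b and its light chain gave different ratios.

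The inner ear builds a related tip link from other genes, and these were low in both pools. Of 6 such genes, 4 were measured. Myo7a, the counterpart of Myo7b, was at 6.76 FPKM in the knockout pool and 7.95 FPKM in the control pool, Whrn, related to Ush1c, at 2.81 and 2.88, and Cib2 at 2.11 and 2.07. Ush1g, the counterpart of Anks4b, was at 1.37 FPKM in the knockout pool and 0.04 FPKM in the control pool, from 38 counts and 1 count, a ratio of 38.7 with a counting interval of 6.54 to 1569. The cadherins Cdh23 (0.08 and 0.03 FPKM) and Pcdh15 (0.07 and 0.11 FPKM) were below the level counted as measured in both pools.

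**Figure D3:**
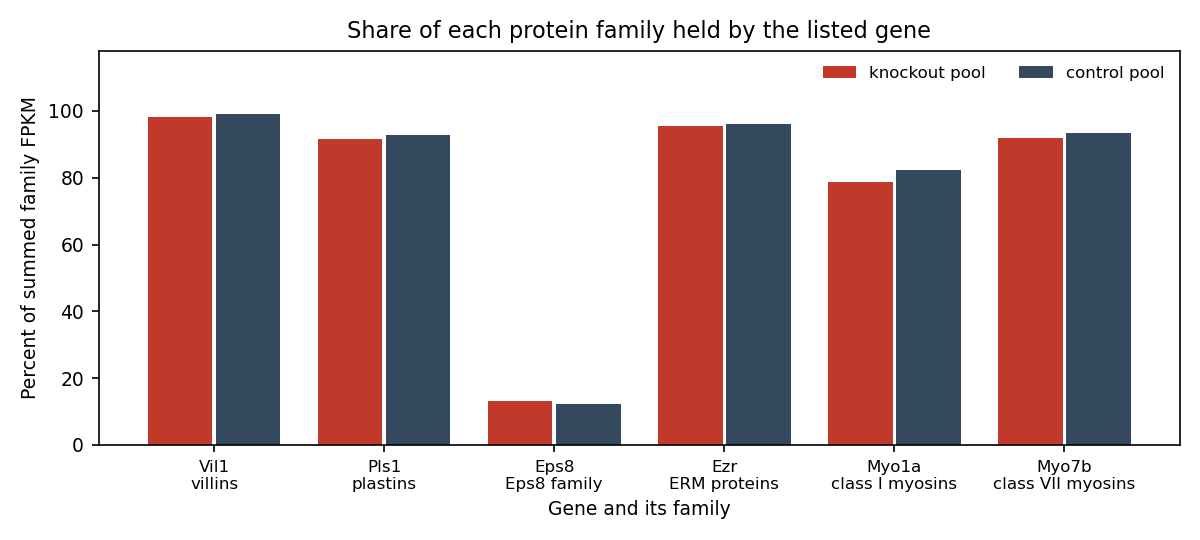
Share of each protein family's summed FPKM held by the listed gene, in percent, with the knockout pool left of the control pool; each bar is 1 library. Vil1 held 98.2% and 99.2% of the villins, Myo1a 78.6% and 82.2% of the class I myosins analysed, and Eps8 only 13.2% and 12.3% of its family.

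Most of the genes were the main member of their protein family, an arrangement by families that was made after the values were seen. Vil1 made up 98.2% of the summed FPKM of Vil1, Vill and Avil in the knockout pool and 99.2% in the control pool. Vill, a villin-like gene, was at 3.46 FPKM in the knockout pool and 0.35 FPKM in the control pool, from 87 and 9 counts, a ratio of 9.85 (4.96 to 22.3), and made up 0.473% and 0.0395% of the villin sum. Pls1 made up 91.6% of the plastins in the knockout pool and 92.7% in the control pool, beside Lcp1, the leukocyte plastin (15.75 FPKM and 18.4 FPKM), and Pls3 (5.26 and 3.38). Ezr made up 95.6% and 96.0% of the ERM proteins, beside Msn (13.22 FPKM and 12.62 FPKM) and Rdx (5.1 and 3.8), and Myo7b made up 92.0% and 93.2% of the class VII myosins. Espn exceeded its paralogue Espnl, which was at 0.27 FPKM in the knockout pool and 0.06 FPKM in the control pool.

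Eps8 and Myo1a shared their families with abundant paralogues. Eps8 made up 13.2% of the 4 Eps8 genes in the knockout pool and 12.3% in the control pool, while Eps8l3 was at 244.79 FPKM and 309.09 FPKM, a ratio of 0.792 (0.763 to 0.822), and Eps8l2 at 175.82 FPKM and 189.04 FPKM, a ratio of 0.930 (0.894 to 0.968). Myo1a made up 78.6% of the summed FPKM of the 7 class I myosins analysed here in the knockout pool and 82.2% in the control pool. None of the other 6 had an interval below 1 and 2 had one above 1, against 28.0% of all measured genes. Those were Myo1c at 16.54 FPKM in the knockout pool and 11.95 FPKM in the control pool, a ratio of 1.38 (1.24 to 1.55), and Myo1h at 7.96 and 5.77 FPKM, a ratio of 1.38 (1.16 to 1.64). Myo1d, the next most abundant, was at 59.42 FPKM in the knockout pool and 57.4 FPKM in the control pool, a ratio of 1.03 (0.981 to 1.09). Myo1e (22.05 and 20.93 FPKM), Myo1f (3.29 and 3.11 FPKM) and Myo1g (3.02 and 3.13 FPKM) also had intervals that included 1.

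**Figure D4:**
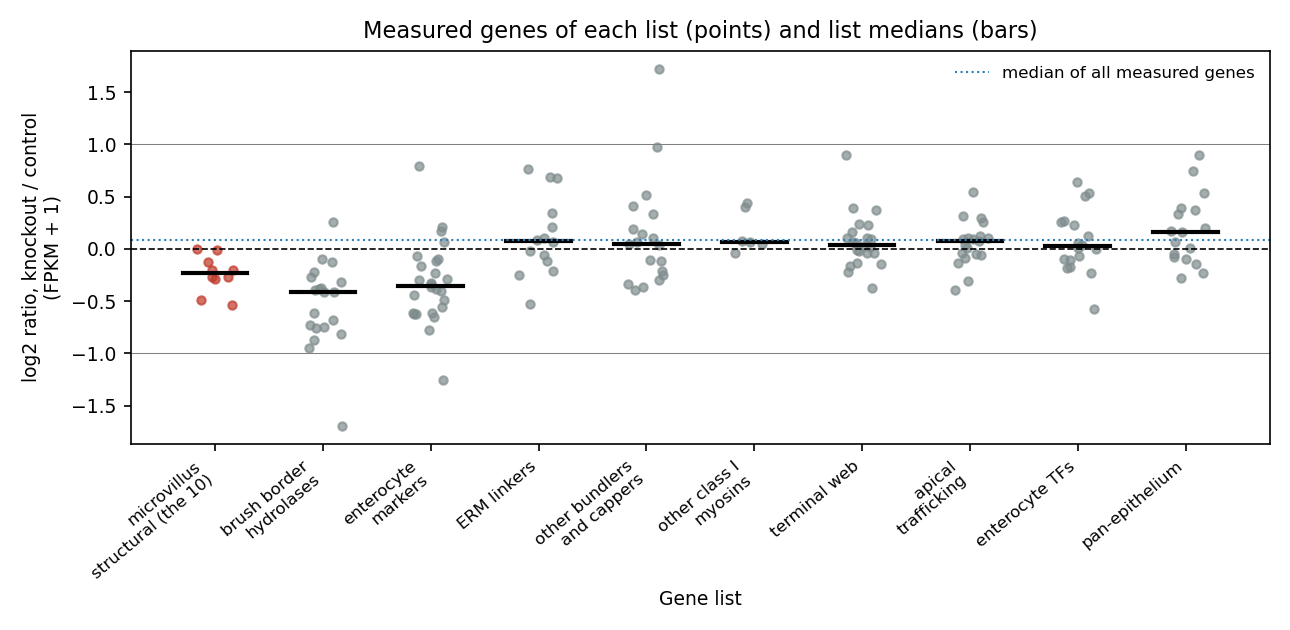
Log2 ratio of knockout over control (FPKM + 1) for every measured gene of 10 lists; each point is a gene, black bars are list medians, the dotted line is the median of all measured genes and grey lines mark 2-fold. The bars of the microvillus genes (-0.23), the hydrolases (-0.41) and the enterocyte markers (-0.35) are the lowest of the 10 lists drawn. Tuft, goblet and Paneth markers, not drawn, had medians of -0.33, -0.35 and -0.91. Centred on the enterocyte markers, the microvillus median was 0.12.

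The list medians of the wider brush border cytoskeleton were close to the median of all genes, and the medians given here for other bundlers and cappers, terminal web, apical trafficking, ERM linkers and transcription factors turned slightly below 0 when the libraries were scaled by their median ratio. Among 19 measured bundlers, cappers and membrane benders, 8 were below 0, the median was 0.05 and 1 gene, Vill, was past 2-fold upward. Among all measured genes 37.2% were below 0 and 2.78% were at least 2-fold higher. The summed counts of the bundler and capper list, which its abundant genes dominate, had a ratio of 0.928 (0.912 to 0.944). Cobl, an actin nucleator of the brush border, was at 32.89 FPKM in the knockout pool and 43.45 FPKM in the control pool, a ratio of 0.757 (0.709 to 0.809). Twf2, an actin capper of the twinfilin family, was at 20.62 FPKM and 10.01 FPKM, a ratio of 2.06 (1.68 to 2.54); its log2 ratio of 0.97 with 1 FPKM added was just short of 2-fold, and with 0.1 FPKM added 2 genes of the list were past it. Among 22 measured genes of the rootlet and terminal web, 9 were below 0, against the same 37.2%, and the median was 0.04. Krt20, a keratin of differentiated villus cells, was at 1174 FPKM and 1522 FPKM (ratio 0.771, 0.757 to 0.785), and Krt18 at 180.43 and 96.61 FPKM (ratio 1.87, 1.74 to 2.01). Actb, named with its values already known because it supplies the actin of the core, was at 1398 FPKM in the knockout pool and 1423 FPKM in the control pool, a ratio of 0.983 (0.965 to 1.0005).

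The ERM linker list holds the other ERM proteins, their scaffolds and their kinases. Of 14 measured ERM linker genes, 6 were below 0 and the median was 0.07, against 37.2% and 0.08 among all measured genes. The 3 with a mean of 50 FPKM or more, a subset taken after seeing the data, were all below 0, with a median of -0.21. Among all genes this abundant 47.9% were below 0 and the median was 0.02. The summed counts of the ERM linker list had a ratio of 0.895 (0.878 to 0.912). Pdzk1, a scaffold for apical transporters, was at 80.35 FPKM in the knockout pool and 116.27 FPKM in the control pool, a ratio of 0.691 (0.649 to 0.735). Slc9a3r1, the ezrin-binding scaffold and the most abundant of the list, was at 651.15 FPKM and 755.72 FPKM, a ratio of 0.861 (0.840 to 0.884). Stk26, a kinase that acts on ezrin in human cells, was at 1.96 FPKM and 0.74 FPKM, from 57 and 22 counts. Of 19 genes of apical trafficking, 7 were below 0 and the median was 0.08, also against 37.2% and 0.08 among all measured genes. The median was -0.07 over the 4 with a mean of 50 FPKM or more, against 0.02 among all genes this abundant. The ratio of summed counts of the trafficking list was 1.01 (0.995 to 1.03). In that list Stxbp2, whose loss causes a microvillus disorder in humans, was at 43.3 FPKM in the knockout pool and 53.66 FPKM in the control pool (ratio 0.807, 0.742 to 0.876), and Unc45a, a myosin chaperone, at 19.39 and 13.03 FPKM (ratio 1.49, 1.30 to 1.70).

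Other products of the absorptive enterocyte also had list medians below 0. Of 20 measured hydrolases of the brush border membrane, 19 were below 0, with a median of -0.41 and a range of -1.69 to 0.25; Naaladl1 was lowest (26.03 FPKM in the knockout pool, 86.45 FPKM in the control pool) and Alpi highest (2110 and 1770 FPKM). Of 26 enterocyte markers, 22 were below 0, with a median of -0.35 and a range of -1.25 to 0.80. All 10 microvillus ratios lay within both ranges. Among all measured genes 37.2% were below 0. Markers of some other epithelial cell types also had medians below 0. Of 10 measured tuft cell markers 9 were below 0, with a median of -0.33 and a ratio of summed counts of 0.842 (0.780 to 0.909). Of 9 goblet cell markers 6 were below 0, with a median of -0.35 and a ratio of 0.631 (0.624 to 0.639). Of 7 Paneth cell markers 6 were below 0, with a median of -0.91 and a ratio of 0.564 (0.555 to 0.573). Enteroendocrine markers differed, with 5 of 10 below 0, a median of 0.00 and a ratio of 1.06 (1.01 to 1.12). The summed counts had a ratio of 0.754 (0.749 to 0.758) for the hydrolases and 0.790 (0.787 to 0.793) for the enterocyte markers, against 0.870 (0.862 to 0.877) for the microvillus genes. With 1 library per pool these sums differ beyond counting error, and whether the groups of genes differ beyond the variation between mice was not tested.

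Transcription factors of enterocyte maturation were near the whole library, where 37.2% of measured genes were below 0 with a median of 0.08. Of 18 factors, 7 were below 0 and the median was 0.02. Hnf4g was lowest, at 72.37 FPKM in the knockout pool and 108.21 FPKM in the control pool, a ratio of 0.669 (0.637 to 0.703). Its relative Hnf4a was at 197.95 FPKM and 193 FPKM, a ratio of 1.03 (0.993 to 1.06). For Cdx2 the levels were 58.56 FPKM and 56.3 FPKM, a ratio of 1.04 (0.955 to 1.13), and for Srf, which acts through the CArG box, 11.53 FPKM and 12.49 FPKM, a ratio of 0.923 (0.805 to 1.06). Among other factors of the families whose letters were searched, the ratio was 1.43 (1.29 to 1.58) for Cdx1, 1.20 (1.12 to 1.28) for Gata4, 0.875 (0.801 to 0.956) for Gata6, 0.935 (0.888 to 0.986) for Klf4 and 1.01 (0.913 to 1.11) for Klf5. Hnf4a, Cdx2, Srf and these 5 were chosen after their values were seen. Creb3l3, the most abundant of the list, was at 233.46 FPKM in the knockout pool and 273.26 FPKM in the control pool, and Gata5 and Elf3, with the highest ratios, were at 37.73 and 23.79 FPKM and at 215.57 and 148.76 FPKM.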

How the data were processed

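Per the labels' protocols, total RNA from whole intestine was sequenced on Illumina machines, and reads were mapped to the mouse build mm10. The submitters' processing notes name BWA, Bowtie2 and RSEM, with versions not given in the sources used here. The deposited sample files hold expected counts per gene and FPKM as the authors computed them, and the deposited series table repeats the same FPKM. Libraries held 8646358 (knockout) and 8809678 (control) expected counts.

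Genes at 1 FPKM or more in at least 1 library counted as measured. The log2 ratio used a pseudocount of 1 FPKM, which understates changes of low genes. Counts were rounded, and each ratio of counts per library total has a 95% Clopper-Pearson interval. Single levels have Poisson intervals. No p-value was computed, since each group had 1 library. Members, gene lists and motifs were chosen with earlier results of these data known. Genes named are the 10 members, Setd2, the tip-link, inner ear and class I myosin lists as analysed, and, of other lists described, the 2 genes at each end of the log2 ratios at most and the most abundant gene; others are named as chosen later, or to account for a family, an overlap or a gene listed at 0. Some genes of these families are not reported here. Positions are from RefSeq on GRCm38.p6 and transcripts from GENCODE. Python 3.11.15, scipy 1.17.1 and pandas 2.3.3 were used.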

Additional observations from a re-analysis of the deposited data

How the results depend on the processing

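Across 12 alternatives (pseudocounts, scalings, filters and library totals; 2 of them added after seeing the data) none of the 10 genes reached 2-fold. Centred on the median of the enterocyte marker list, the median of the 10 genes was 0.12 and 2 genes were below 0; this setting subtracts the lower ratio of that list by construction. Rescaled to TPM, 8 genes were below 0. Centring on the pan-epithelial list, which moved the median of all genes to -0.08, gave a microvillus median of -0.39, and centring on the enterocyte markers moved the median of all genes to 0.44. In the other alternatives the microvillus median lay between -0.33 and -0.22. Of 120 single-gene values under alternatives, 109 were below 0. These are not independent checks: settings that only change the filter repeat the main value of each gene, and the pseudocounts hardly move it. No paired analysis was possible because each genotype had 1 library, and for the same reason no replicate could be left out. Counting intervals at this depth do not cover differences between mice.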
